A study of Mus musculus with 8 samples.

Results

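Imprinted fetal growth genes are genes read mainly from one parental copy that set how much a fetus grows. They were followed through RNA libraries of recipient mouse pups, and of the maternal cells that had crossed into them, after in-utero haematopoietic stem cell transplantation (IUT). The 10 genes are a list of names, with no threshold on their values, but chosen with earlier results of these data known. All 10 were found among the 52784 genes of the deposited table, of which 25066 had a count in at least 1 library. As background, 5 are expressed from the maternally inherited copy (H19, Cdkn1c, Igf2r, Grb10 and Meg3) and 5 from the paternally inherited copy (Igf2, Mest, Plagl1, Dlk1 and Peg3). The table holds 1 count per gene and library and does not separate the parental alleles, so these names describe the genes and not what was measured.

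The study asked how maternal dendritic cells (DC) shape the response of a fetus to donor cells. Pups came from C57BL/6 (CD11c-DTR) dams mated to BALB/c males, and all libraries were made at 1 week of age. The CD11c-DTR transgene places a diphtheria toxin receptor under the CD11c (Itgax) promoter, so that diphtheria toxin (DT) removes CD11c+ cells from the dam for a short time, and it is not restricted to a single DC type. There were 8 libraries, 1 of trafficked maternal cells and 1 of recipient (fetal) cells for each of 4 treatments. Uninjected pups had no IUT, and their dams were either given DT or not, with no record here of how the pool divides. DC control mIUT pups had saline-treated dams and received 5000000 bone marrow mononuclear cells of C57BL/6 (B6) mice, which the study's methods list apart from the CD11c-DTR line, on embryonic day 14. DC control pIUT pups had saline-treated dams and received the same number of BALB/c cells. DC-depleted pIUT pups received BALB/c cells after the dam was given DT at 5 ng/g on embryonic day 13. Each library was made from cells of pooled pups, so n = 1 per origin and treatment. Each comparison below is between libraries, with no replicate check of the condition.

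Maternal cells were sorted from whole-body harvests with H2K-b and recipient cells with H2K-d. Recipient cells of the F1 pups carry both markers, B6 donor cells carry H2K-b and BALB/c donor cells carry H2K-d. The purity of each sort with respect to these cells was not tested. For the trafficked maternal cells, the parent of origin of an imprint is a parent of the dam. For the recipient cells it is the dam or the BALB/c sire.

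Imprinted genes keep a methylation mark from egg or sperm and are read mainly from a single parental copy in the offspring. Many of them act on fetal growth in opposite directions: paternally expressed genes such as Igf2 promote it, and maternally expressed genes such as Igf2r, H19, Cdkn1c and Grb10 restrain it. Most are abundant in fetal liver, muscle, mesenchyme and placenta and decline after birth, while several, among them Cdkn1c, H19 and Meg3, are also known from quiescent blood stem cells. The labels name the cells sequenced here mononuclear cells.

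Library totals ranged from 38543457 to 47965130 estimated counts, and genes with at least 10 counts ranged from 9125 to 16231 per library. In 2 libraries, genes that all the other libraries held at 10 CPM (the count relative to the TMM-normalised library size) or more were often under 1 CPM. These were recipient uninjected, with 359 of 3776 such genes (9.51%), and maternal mIUT, with 176 of 3622 (4.86%). In the other libraries the share was at most 1.26%. The leukocyte list of 5 genes was detected in full in all 8 libraries, but its sum ranged from 573.5 CPM in maternal DC-depleted pIUT to 11671 CPM in recipient mIUT. Summed erythroid genes ranged from 155.6 CPM in recipient mIUT to 146484 CPM in maternal DC-depleted pIUT, T cell genes from 86.8 CPM in maternal pIUT to 1758 CPM in recipient pIUT, and B cell genes from 30.3 CPM in maternal DC-depleted pIUT to 6621 CPM in maternal uninjected. The libraries thus differed widely in the cell types their RNA reflects. Marker counts beside the comparisons below are called genes of those tested, and their part in the members' levels was not tested. A level of 3 counts, below which a gene was treated as not detectable, corresponds to 0.0547 to 0.105 CPM. At this depth a gene listed at 0 is not shown to be absent. Intervals on counts are exact Poisson intervals at the 95% level and cover counting error only, and fewer cells of a type and less RNA per cell cannot be told apart in these bulk samples.

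Several members also carry a microRNA gene, and 5 of the mature microRNAs are shown because they are the small RNA products that would accompany the host transcripts. Their sequences are from RefSeq (table of GRCm38.p6), and each was found within the annotated GRCm39 transcript of its gene. The seed, bases 2 to 8, is in capitals.
miR-675-5p: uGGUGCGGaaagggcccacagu
miR-675-3p: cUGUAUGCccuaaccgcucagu
miR-770-5p: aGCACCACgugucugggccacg
miR-483-3p: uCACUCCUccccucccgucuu
miR-335-5p: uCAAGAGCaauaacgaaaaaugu
The 5 seeds are all different. Mir675 (GRCm39 chr7:142130801-142130884, minus strand) lies in an exon of H19, and Mir770 (chr12:109530126-109530219, plus strand) in an exon of Meg3. Mir483 (chr7:142208661-142208733, minus strand) lies in an intron of Igf2, and Mir335 (chr6:30741298-30741395, plus strand) in an intron of Mest. Each of these 4 genes had 0 counts over the 8 libraries, while H19 had 18589. These counts are of gene-level long RNA, and mature microRNAs were not measured.

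Of the 80 values (10 genes in 8 libraries), 61 were over 3 counts, 17 were 0 and 2 lay between. H19, Cdkn1c, Igf2r and Igf2 were over 3 counts in all 8 libraries, Mest in 7, Grb10 in 6, Dlk1 and Plagl1 in 5, Peg3 in 4 and Meg3 in 2. All 10 genes were detected in maternal pIUT and maternal DC-depleted pIUT, but 5 in recipient uninjected. The highest level fell in maternal mIUT for 5 members (H19, Cdkn1c, Igf2r, Igf2 and Mest), in maternal pIUT for 3 (Plagl1, Peg3 and Meg3) and in recipient DC-depleted pIUT for 2 (Grb10 and Dlk1). The mean CPM over the 4 maternal libraries was above that over the 4 recipient libraries for 9 of 10 members. The exception was Grb10 (5.74 CPM in maternal against 7.11 CPM in recipient libraries). The same count over all genes was not made, so 9 of 10 has no background here. Means without single libraries were added after seeing the data, and no mean leaves out maternal mIUT and maternal pIUT together. Without maternal mIUT 8 members were higher in maternal cells, with Cdkn1c (19.9 against 25.7 CPM) and Igf2r (1.60 against 3.91 CPM) as the exceptions and Grb10 at 7.64 CPM on the maternal side. Without maternal pIUT 7 were, with Grb10 (3.69 against 7.11 CPM), Peg3 (0.0707 against 0.924 CPM) and Dlk1 (2.57 against 2.78 CPM) as the exceptions. Per kilobase of exon, the scale on which genes can be compared, Cdkn1c had the highest mean level over the 8 libraries (50.3 CPM per kb), followed by H19 (19.3). Without maternal mIUT the means were close, at 10.8 and 10.4 CPM per kb, and each of these genes was the highest member in 4 of 8 libraries. Mest and Igf2 were each at 2.13 to 2.14 CPM per kb, Igf2r, Grb10, Plagl1 and Dlk1 between 0.544 and 0.715, Peg3 at 0.188 and Meg3 at 0.0128.

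**Figure D1:**
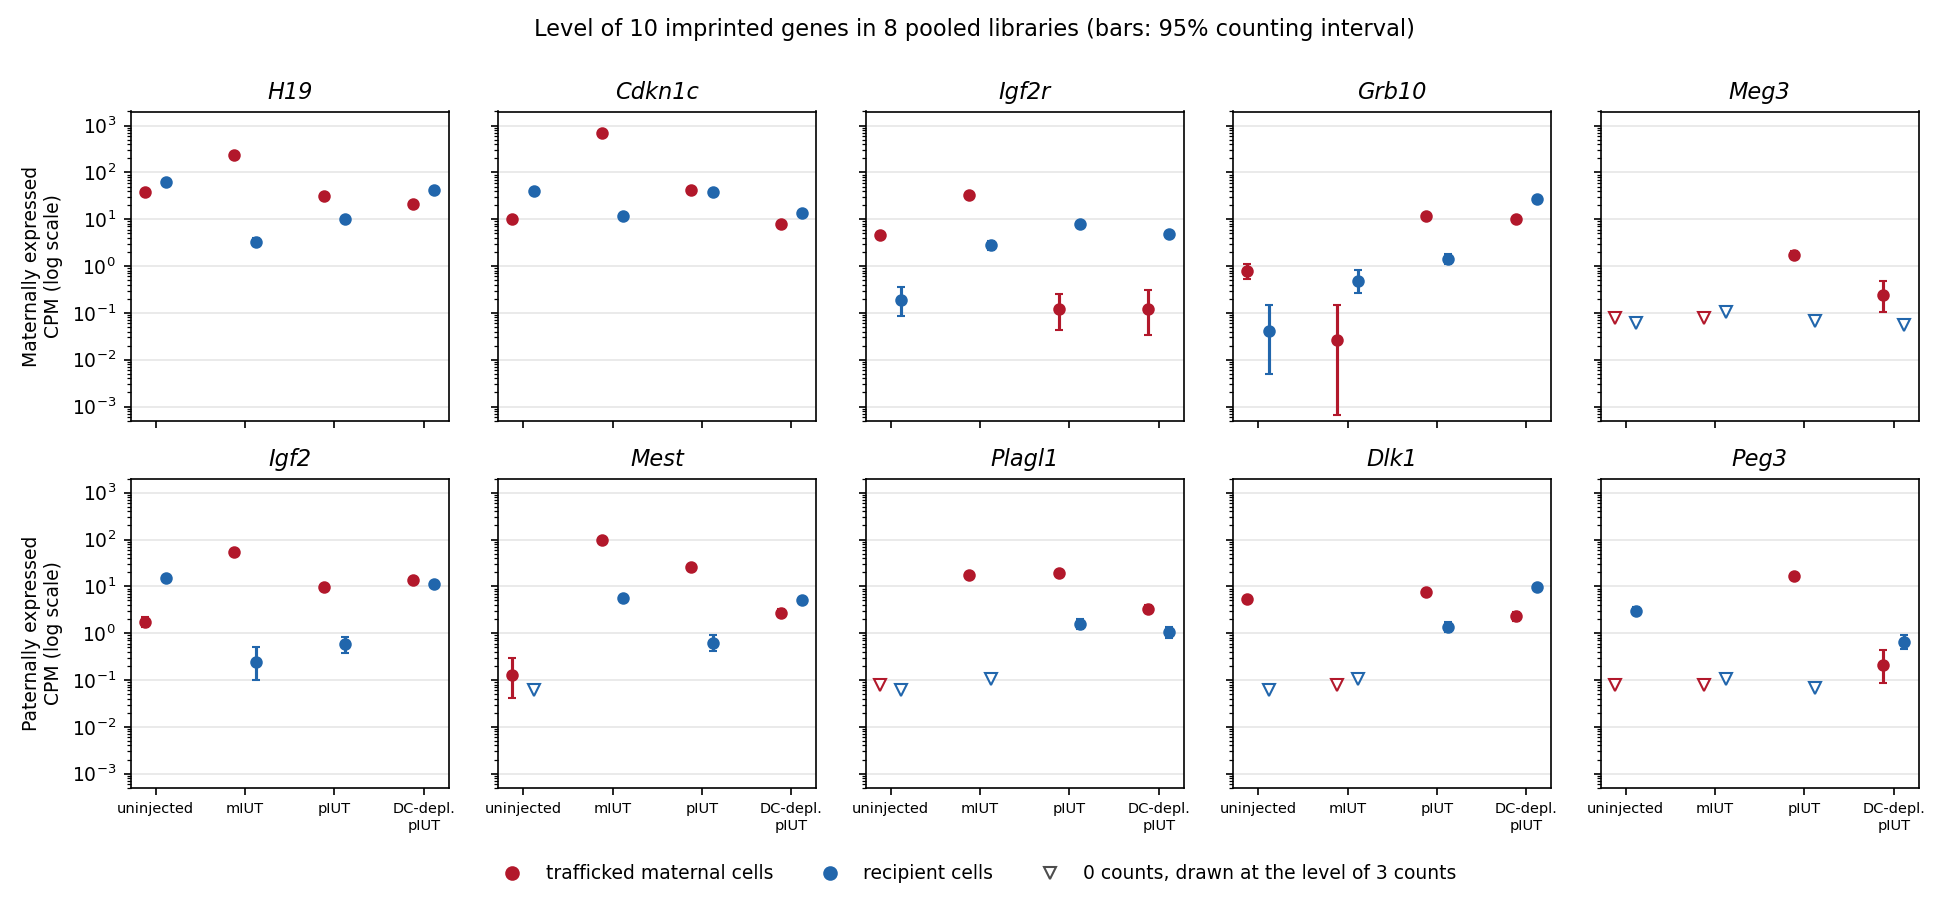
Level of each of the 10 genes (CPM, log axis) by treatment in trafficked maternal cells (red) and recipient cells (blue), with 1 pooled library per point, bars for the 95% counting interval, and open triangles at the level of 3 counts for libraries with 0 counts. The mIUT and pIUT points are DC control libraries. Maternal mIUT holds the highest point of H19, Cdkn1c, Igf2r, Igf2 and Mest, and 3 genes (Meg3, Dlk1 and Peg3) are at 0 in that same library.

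H19 is a long non-coding RNA (GRCm39 chr7:142129262-142133957, minus strand, 2 merged exons of 2848 bases) made from the maternal copy next to Igf2. In trafficked maternal cells it was at 38.5 CPM in uninjected, 231.6 CPM in mIUT, 31.7 CPM in pIUT and 21.0 CPM in DC-depleted pIUT. In recipient cells it was at 61.1, 3.28, 10.2 and 42.3 CPM in the same order. The order of the libraries therefore differed between origins: maternal mIUT was the highest of all 8 and recipient mIUT the lowest, 70.7-fold apart, and no neighbouring libraries in the order had overlapping counting intervals. Per kilobase, H19 stood at percentile 94.3 of genes with at least 10 counts in maternal mIUT and at percentile 37.5 in recipient mIUT.

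Cdkn1c encodes p57Kip2, an inhibitor of cyclin-dependent kinases that holds cells out of the cycle (chr7:143012069-143014806, minus strand). Its mean per kilobase was the highest of the members when maternal mIUT was included. Maternal libraries held 10.1 CPM in uninjected, 704.1 CPM in mIUT (95% interval 696 to 713), 41.6 CPM in pIUT and 7.87 CPM in DC-depleted pIUT. Recipient libraries held 39.5, 11.9, 37.6 and 13.9 CPM. Of all its 34735 counts, 78.5% came from maternal mIUT, which was 16.9-fold above maternal pIUT, the next library. The intervals of maternal pIUT, recipient uninjected and recipient pIUT overlapped from one to the next, as did those of recipient DC-depleted pIUT, recipient mIUT and maternal uninjected.

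Igf2r, the receptor that takes up the growth factor IGF2 and carries it to lysosomes (chr17:12901293-12988614, minus strand), was at 4.57 CPM in maternal uninjected and 33.2 CPM in maternal mIUT. After pIUT and DC-depleted pIUT the maternal libraries were near the detection limit, with 6 and 4 counts (0.119 and 0.121 CPM). Recipient cells were ordered otherwise, with 9 counts (0.186 CPM) in uninjected and 2.83, 7.82 and 4.80 CPM in mIUT, pIUT and DC-depleted pIUT. The intervals of the 3 libraries near the limit overlapped from one to the next.

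Grb10 encodes an adaptor protein that dampens signalling from the insulin and IGF1 receptors (chr11:11880498-11988683, minus strand). It was at 0.771 CPM in maternal uninjected, at 1 count in maternal mIUT, and at 11.9 and 10.3 CPM in maternal pIUT and DC-depleted pIUT. In recipient cells it was at 2 counts in uninjected and at 0.488, 1.44 and 26.5 CPM after mIUT, pIUT and DC-depleted pIUT. Its highest library was thus recipient DC-depleted pIUT, 2.23-fold above maternal pIUT, and the intervals of maternal pIUT and maternal DC-depleted pIUT overlapped.

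Meg3, the long non-coding RNA of the Dlk1 domain (chr12:109506877-109538165, plus strand), had 88 counts in maternal pIUT (1.74 CPM), 8 counts in maternal DC-depleted pIUT and 0 in the other 6 libraries, all 4 recipient libraries included. The intervals of those zeros reach at most 0.129 CPM.

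Igf2, the fetal growth factor (chr7:142204503-142220694, minus strand), was at 1.77, 53.0, 9.53 and 13.5 CPM in maternal uninjected, mIUT, pIUT and DC-depleted pIUT. It was at 15.1, 0.244, 0.576 and 11.5 CPM in the recipient libraries. Recipient mIUT and pIUT were therefore the lowest 2 of the 8, with 7 and 26 counts and overlapping intervals, and 217-fold separated recipient mIUT from maternal mIUT.

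Mest encodes an enzyme of the alpha/beta hydrolase family (chr6:30723546-30752058, plus strand). Maternal uninjected had 5 counts (0.129 CPM), and maternal mIUT, pIUT and DC-depleted pIUT had 98.3, 25.3 and 2.73 CPM. Recipient uninjected had 0 counts, and the other recipient libraries 5.54, 0.620 and 5.22 CPM. Both uninjected libraries were thus at the bottom of the order.

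Plagl1, a zinc finger transcription factor (chr10:12936248-13007438, plus strand), had 0 counts in maternal uninjected and 17.1, 19.6 and 3.36 CPM in maternal mIUT, pIUT and DC-depleted pIUT. It had 0 counts in recipient uninjected and recipient mIUT, and 1.59 and 1.04 CPM in recipient pIUT and DC-depleted pIUT. The intervals of maternal pIUT and maternal mIUT, the highest libraries, overlapped.

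Dlk1, a membrane protein with EGF-like repeats found on fetal progenitors (chr12:109418749-109429262, plus strand), was at 5.40 CPM in maternal uninjected, 0 counts in maternal mIUT, and 7.43 and 2.30 CPM in maternal pIUT and DC-depleted pIUT. It had 0 counts in recipient uninjected and mIUT, and 1.37 and 9.76 CPM in recipient pIUT and DC-depleted pIUT. The highest library was recipient DC-depleted pIUT, 1.31-fold above maternal pIUT, with separate intervals.

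Peg3, a large zinc finger protein (chr7:6706882-6733468, minus strand), was at 844 counts (16.7 CPM) in maternal pIUT, 147 counts (3.04 CPM) in recipient uninjected, and, after DC-depleted pIUT, 36 counts in recipient and 7 in maternal cells. The other 4 libraries had 0 counts. A single library held 81.6% of its counts.

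Recipient cells were then compared with the trafficked maternal cells of the same pooled pups. A gene is called higher or lower at 4-fold or more, among genes with at least 10 counts in 1 of the 2 libraries, and no p-value was made from a single pair. Where a library had 0 counts the fold was taken against 3 counts in that library. It is written "at least", a bound set by this detection limit that does not cover counting error. In uninjected pups, 5 of 7 members tested were called, 2 higher and 3 lower in recipient cells, where 56.4% of all genes tested were called. Calls across the table were mostly lower in recipient cells (5786 lower, 2123 higher). The recipient library here is 1 of the 2 that lacked many genes. Igf2 was 8.49-fold higher in recipient cells (95% counting interval 6.63 to 11.0) and Peg3 at least 39.4-fold higher. Dlk1 was at least 87.0-fold lower, Igf2r 24.6-fold lower (12.7 to 54.6) and Grb10 18.6-fold lower (4.73 to 161, from 2 counts). H19 was at 1.59-fold and Cdkn1c at 3.91-fold of the maternal level, under the threshold, although with DESeq2 size factors Cdkn1c passed it (log2 value 2.00). In the same comparison 6 of 8 hepatocyte and 5 of 6 epithelial genes were higher in recipient cells, and 4 of 5 B cell and 4 of 5 progenitor genes lower. The remaining progenitor gene, Procr (114.4 CPM against 0 counts), was higher and set the list's sum, at 114.7 CPM in recipient and 31.2 CPM in maternal cells.

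After DC control mIUT, all 7 members tested were called, 6 of them lower in recipient cells, against 49.3% of all genes tested. Of the genes called across the table, 5130 were higher and 1917 lower in recipient cells, so most calls ran the other way. Igf2 was 217-fold lower (105 to 541), H19 70.7-fold, Cdkn1c 59.0-fold, Mest 17.7-fold and Igf2r 11.8-fold lower, and Plagl1 at least 163-fold lower. Grb10 was the exception, with 14 counts against 1, a ratio of 18.9 with an interval of 2.88 to 799. Hepatocyte genes were lower in recipient cells for 6 of 8, epithelial genes for 5 of 6 and erythroid genes for 6 of 7, while 5 of 6 progenitor genes were higher, with similar sums of 49.1 CPM in recipient and 51.0 CPM in maternal cells. The maternal library here is one of the 2 that lacked many genes.

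After DC control pIUT, 8 of 10 members were called, 7 lower and 1 higher, where 44.2% of all genes were called (4151 higher, 3121 lower). All 5 paternally expressed members were lower in recipient cells: Dlk1 5.42-fold (interval 4.13 to 7.20), Plagl1 12.3-fold, Igf2 16.6-fold, Mest 40.9-fold and Peg3 at least 251-fold. Their median log2 value, with Peg3 at its bound, was -4.04, against 0.27 over all genes tested. Of the maternally expressed members, Meg3 was at least 26.2-fold and Grb10 8.26-fold lower, while Igf2r was 65.9-fold higher (30.0 to 181). Cdkn1c (log2 value -0.15) and H19 (-1.64) stayed under 4-fold. Lower in recipient cells as well were 5 of 6 mesenchymal, 7 of 8 hepatocyte, 4 of 4 skeletal muscle and 4 of 7 endothelial genes, while 6 of 6 T cell and 5 of 6 myeloid genes were higher. Epithelial genes ran mostly the other way, with 4 higher and 2 lower of 6. The endothelial sums were close, at 48.7 CPM in recipient and 55.6 CPM in maternal cells.

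After DC-depleted pIUT, 2 of 9 members tested were called, both higher in recipient cells, where 37.9% of all genes were called (4832 higher, 1638 lower). These were Igf2r, 39.6-fold (15.3 to 146), and Dlk1, 4.24-fold (3.33 to 5.47). With DESeq2 size factors Dlk1 fell short of the threshold (log2 value 1.96) and 1 member was called. Scaling by library size alone gave 3 called members, Peg3 included, and turned the sign of Igf2. Without the filter on low counts 3 were called as well, Meg3 included. The other 7 members tested lay between 3.23-fold lower (Plagl1) and 3.10-fold higher (Peg3), and H19 at 2.02-fold and Grb10 at 2.58-fold higher were under the threshold. Meg3, with 8 maternal counts and 0 in recipient cells, was at least 4.43-fold lower but under the count minimum. The share called was 22.2% of the members tested. Progenitor genes were higher in recipient cells for 7 of 8, endothelial genes for 6 of 7 and B cell genes for 4 of 5, and 7 of 8 erythroid genes were lower. The remaining endothelial gene, Egfl7, was lower (39.4 against 168 CPM), so that the endothelial sum ran the other way, at 69.6 against 168.5 CPM. The comparisons of the DC control and DC-depleted pIUT pups use neither of the 2 libraries that lacked many genes.

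**Figure D2:**
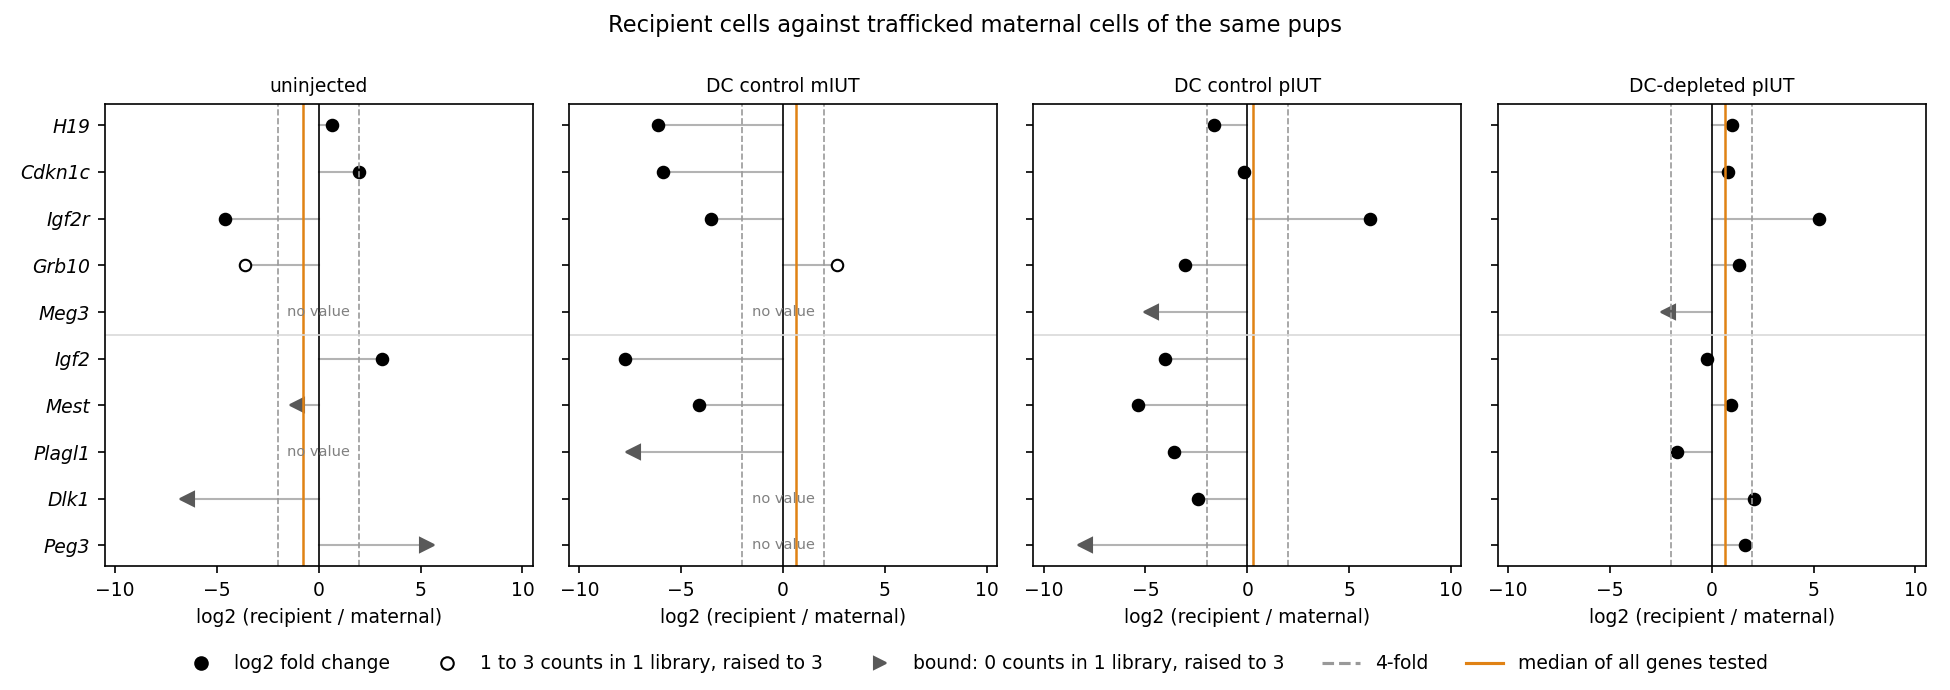
Log2 ratio of recipient to maternal level for each of the 10 genes in the 4 treatments, with filled points for measured ratios, open points where a library had 1 to 3 counts (raised to 3), triangles for bounds, dashed lines at 4-fold and an orange line at the median of all genes tested. After DC control mIUT and DC control pIUT 6 and 7 of the members tested lie beyond the 4-fold line on the lower side, and after DC-depleted pIUT none does among the 9 tested. Meg3 there is a bound from 8 counts and was not among those tested.

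The only replicated contrast is that of origin over the 4 treatments, with 1 pair of libraries each, so its spread is that between treatments. By edgeR's quasi-likelihood test with the treatment as a block, 0 of 13384 genes (0%) passed an adjusted p of 0.05, and 283 had an unadjusted p under 0.05. Of the 8 members tested none passed, each with an adjusted p of 1. Meg3 and Peg3 did not pass the filter on low counts. The estimated recipient minus maternal log2 values were -3.74 for Plagl1, -3.73 for Mest, -2.20 for Dlk1 and -2.15 for Igf2, and between -1.05 (H19) and 0.76 (Igf2r) for the maternally expressed genes. Plagl1 was higher in recipient cells in 0 of 4 pairs, Mest, Dlk1 and Igf2 in 1 of 4, and H19, Igf2r, Cdkn1c and Grb10 in 2 of 4. DESeq2's Wald test called 290 genes (1538 at an unadjusted p under 0.05), 0 of them members.

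Each IUT library was next compared with the uninjected library of its origin, so the 3 comparisons of an origin share that library. In trafficked maternal cells after mIUT, all 8 members tested were called, 6 higher and 2 lower, where 54.3% of all genes tested were called and calls were mostly lower (5242 lower, 2581 higher). Mest was 765-fold higher (328 to 2358, against 5 counts), Cdkn1c 69.7-fold (63.1 to 77.2), Igf2 29.9-fold, Igf2r 7.26-fold and H19 6.01-fold higher, and Plagl1 at least 222-fold higher. Dlk1 was at least 69.7-fold lower. Grb10 went from 30 counts to 1, a 29.9-fold lower level with an interval of 4.96 to 1218. This library is one of the 2 that lacked many genes. Hepatocyte genes were higher for 5 of 8, epithelial genes for 5 of 6 and myeloid genes for 4 of 6, and 5 of 5 B cell and 7 of 8 erythroid genes were lower.

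In maternal cells after pIUT, 8 of 10 members were called, 7 higher and 1 lower, where 47.9% of all genes were called (3796 higher, 3730 lower). Mest was 197-fold, Grb10 15.4-fold, Igf2 5.37-fold and Cdkn1c 4.13-fold (3.70 to 4.61) higher, with Plagl1 at least 254-fold, Peg3 at least 216-fold and Meg3 at least 22.6-fold higher. Igf2r was 38.6-fold lower (17.4 to 107). H19, at a log2 value of -0.28, and Dlk1, at 0.46, were not called, and the sign of H19 turned to 0.06 under scaling by library size alone. Endothelial genes were higher for 5 of 7 and mesenchymal genes for 3 of 5, and 6 of 6 T cell and 5 of 5 B cell genes were lower.

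In maternal cells after DC-depleted pIUT, 5 of 8 members tested were called, 4 higher and 1 lower, where 49.6% of all genes were called (3652 higher, 4049 lower). Mest (21.2-fold), Grb10 (13.3-fold) and Igf2 (7.62-fold) were higher and Plagl1 at least 43.6-fold higher, while Igf2r was 37.8-fold lower. Mesenchymal genes were higher for 6 of 8, skeletal muscle genes for 5 of 6 and hepatocyte genes for 5 of 8, and 5 of 5 leukocyte, 5 of 5 B cell and 4 of 6 T cell genes were lower. Against DC control pIUT, 5 of 9 members were called and all 5 were lower in DC-depleted pIUT. Of all genes tested, 53.2% were called (3902 higher, 4423 lower). Peg3 was 78.7-fold (38.0 to 196), Mest 9.29-fold, Meg3 7.18-fold, Plagl1 5.82-fold and Cdkn1c 5.29-fold lower. Grb10, Igf2 and H19 differed by at most 1.51-fold between these libraries. Dlk1, at 3.23-fold lower, stayed under the threshold. Scaling by library size alone shifted log2 values here by -0.58. Dlk1 then passed the threshold, H19 and Grb10 differed by more than 1.51-fold, and the sign of Igf2 turned. Endothelial genes (5 of 6, median log2 value -5.30) and leukocyte genes (3 of 5, median -2.58) were lower as well, while mesenchymal genes were split, with 3 higher and 2 lower of 8 and sums of 25.1 against 95.1 CPM. The remaining endothelial gene, Egfl7, was higher (168 against 5.14 CPM) and turned the endothelial sum to 168.5 against 55.6 CPM.

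In recipient cells after mIUT, 6 of 7 members tested were called, 3 higher and 3 lower, where 62.6% of all genes were called (6481 higher, 2540 lower). Igf2 was 61.7-fold lower (29.8 to 154), H19 18.6-fold lower (15.2 to 23.1) and Peg3 at least 29.1-fold lower. Mest was at least 89.4-fold and Igf2r 15.2-fold higher, and Grb10 rested on 14 against 2 counts, a ratio of 11.8 with an interval of 2.71 to 107. Hepatocyte (7 of 7), epithelial (5 of 5) and erythroid genes (8 of 8) were lower as well, and 6 of 7 progenitor genes were higher. The seventh, Procr, went from 114.4 CPM to 0 counts, and the progenitor sum was lower, at 49.1 against 114.7 CPM. The uninjected library that all 3 recipient comparisons share is the one that lacked most genes (9.51%) and held the highest hepatocyte sum (14232 CPM). After pIUT, 8 of 9 members were called, 5 higher and 3 lower, where 58.6% of all genes were called (7006 higher, 2058 lower). Igf2 was 26.1-fold, H19 6.01-fold and Peg3 at least 45.8-fold lower. Igf2r was 42.0-fold and Grb10 34.8-fold (9.25 to 293, against 2 counts) higher, and Plagl1, Dlk1 and Mest at least 25.7-fold, 22.1-fold and 9.99-fold higher. Hepatocyte (7 of 7) and epithelial genes (5 of 6) were again lower, and 6 of 7 progenitor genes were higher, while Procr (0.620 CPM) was lower and the progenitor sum stood at 66.5 against 114.7 CPM.

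In recipient cells after DC-depleted pIUT, 6 of 9 members were called against uninjected, 5 higher and 1 lower, where 58% of all genes were called. Most calls across the table ran higher too (7871 higher, 1830 lower). Grb10 was 640-fold (177 to 5286, against 2 counts) and Igf2r 25.8-fold higher, and Dlk1, Mest and Plagl1 at least 157-fold, 84.1-fold and 16.8-fold higher. Peg3 was 4.63-fold lower, but fell under 4-fold with scaling by library size alone (a shift of 0.39 on the log2 scale). H19 and Igf2 were within 1.45-fold of the uninjected level. Mesenchymal genes (7 of 7), progenitor genes (7 of 8) and endothelial genes (5 of 7) were higher, and 5 of 6 epithelial and 6 of 8 erythroid genes lower. Against DC control pIUT, 6 of 9 members were called and all 6 were higher after DC depletion. Of all genes tested, 21.5% were called (2467 higher, 1239 lower). Igf2 was 19.9-fold (13.5 to 30.8), Grb10 18.4-fold (14.3 to 23.9), Mest 8.42-fold, Dlk1 7.11-fold and H19 4.16-fold (3.76 to 4.61) higher, and Peg3 at least 9.89-fold higher. Cdkn1c, at 2.70-fold lower, Igf2r and Plagl1 were not called. Marker genes of other cells moved the same way between these libraries: 8 of 8 hepatocyte (median log2 value 8.71), 6 of 6 skeletal muscle (5.49), 6 of 7 mesenchymal (5.51) and 7 of 8 stem and progenitor genes (2.62) tested were higher after DC depletion, while 0 of 5 leukocyte genes were called and 4 of 6 T cell genes were lower.

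**Figure D3:**
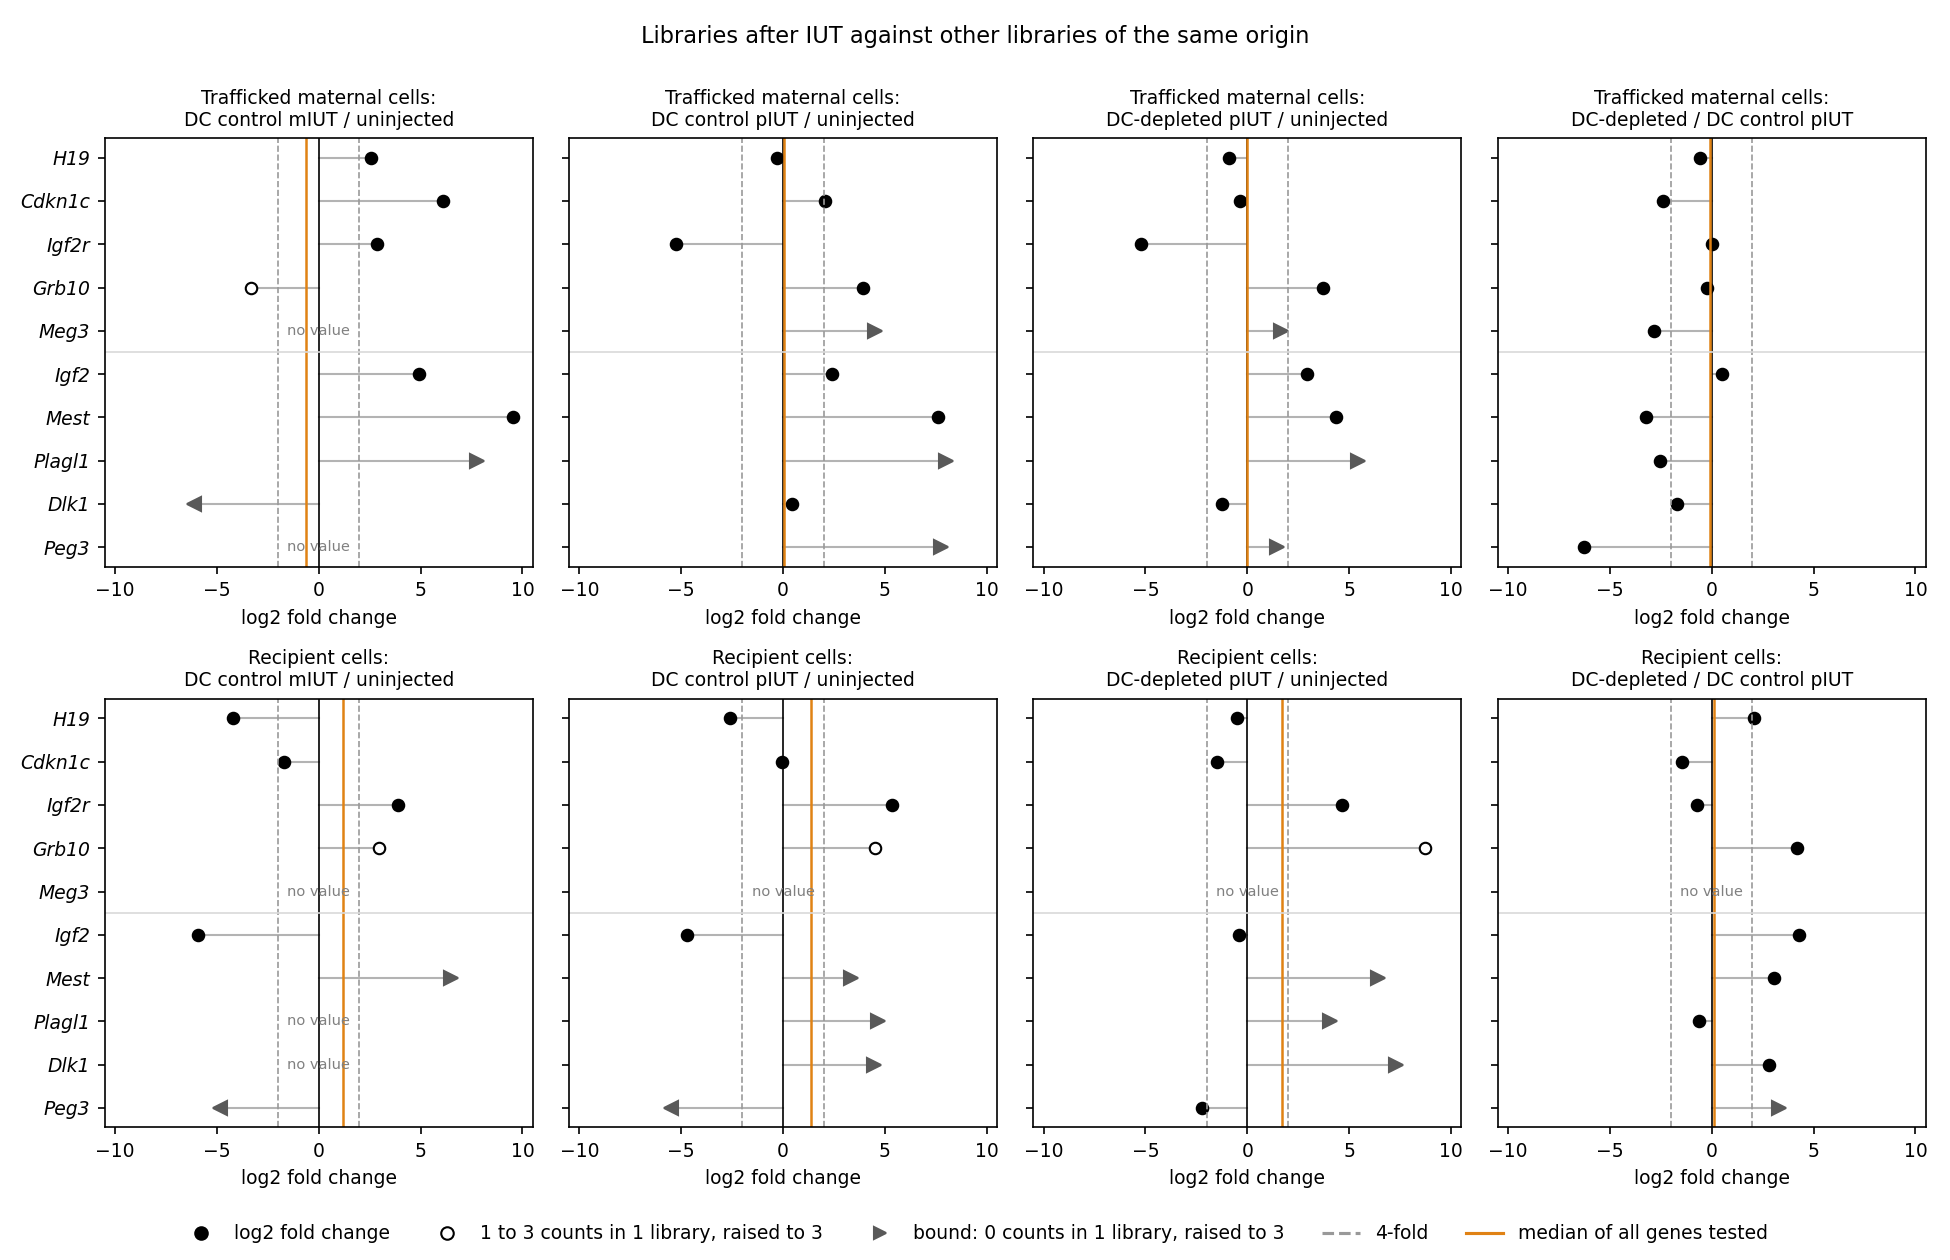
Log2 fold change of each of the 10 genes in trafficked maternal cells (top row) and recipient cells (bottom row) for each IUT library against uninjected and for DC-depleted against DC control pIUT, drawn with the same symbols as the comparison of origins. In the last column the 5 members called in maternal cells lie on the lower side and the 6 called in recipient cells on the higher side.

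Peg3 and Mest were called in both origins for DC-depleted against DC control pIUT and in opposite directions. The difference between the origins has no test here. The members' shares called in recipient cells (66.7% of 9) stood beside a background of 21.5%, and in maternal cells (55.6% of 9) beside 53.2%. A share of 9 genes, from a list chosen with earlier results of these data known, has no test here. It stands beside the counts of hepatocyte, muscle, mesenchymal and progenitor genes given for the same recipient comparison.

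Igf2 and H19 lie side by side and share enhancers, with a single control region choosing between them on each parental copy, so their balance was described within libraries, where the scaling cancels. Igf2 made up 4.40% of the counts of the 2 genes in maternal uninjected (Wilson 95% interval 3.49 to 5.53), 18.6% in maternal mIUT, 23.1% in maternal pIUT and, after DC depletion, 39.2% (36.4 to 42.0) in the maternal pIUT library. Among recipient libraries it made up 19.8% in uninjected, 6.93% (3.40 to 13.6) in mIUT, 5.36% (3.68 to 7.74) in pIUT and 21.3% in DC-depleted pIUT. H19 thus had more counts than Igf2 in all 8 libraries. In maternal cells the uninjected library had the lowest share, and in recipient cells the mIUT and pIUT libraries did, with intervals that overlapped each other.

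Over all 10 genes, the paternally expressed members made up 11.9%, 14.8%, 47.4% and 35.9% of the counts in maternal uninjected, mIUT, pIUT and DC-depleted pIUT. In recipient cells they made up 15.2%, 23.8%, 6.80% and 24.4%. The highest and the lowest share thus came from the maternal and the recipient library of the same DC control pIUT pups. Dlk1 and Meg3, the other neighbouring pair, were both at 0 counts in maternal mIUT, recipient uninjected and recipient mIUT. Where either was seen, Dlk1 was between 81.0% and 100% of their counts, and Meg3 was seen only in the maternal libraries of the DC control and DC-depleted pIUT pups.

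**Figure D4:**
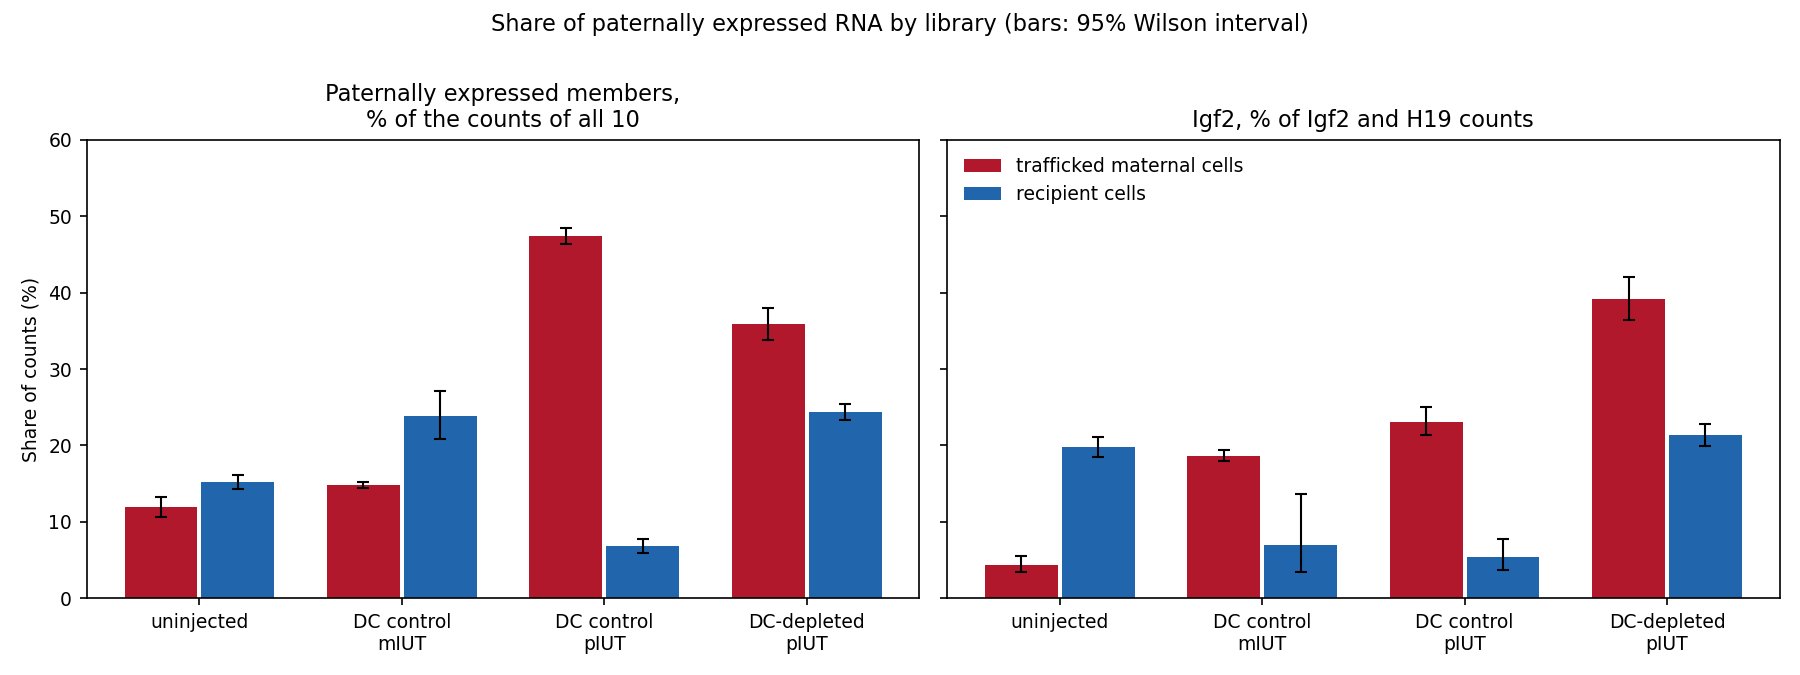
Share of counts (%) held by the 5 paternally expressed genes among all 10 (left) and by Igf2 among Igf2 and H19 (right) in each library, with trafficked maternal cells in red, recipient cells in blue and 95% Wilson intervals of the counts. In DC control pIUT the left share is 47.4% in maternal and 6.80% in recipient cells, and the right share is highest at 39.2% in maternal DC-depleted pIUT.

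Markers of other cell types moved between libraries as well. The 8 hepatocyte genes summed to 14232 CPM in recipient uninjected (Afp, alpha-fetoprotein of fetal liver, at 9055 CPM) and 4507 CPM in maternal mIUT (Apoa1 at 3824 CPM), and to between 76.5 and 1323 CPM elsewhere. Of these genes 5 to 8 were over 3 counts in each library. The 6 epithelial genes summed to 2802 and 432 CPM in those 2 libraries and to at most 33.3 CPM elsewhere. Mesenchymal genes were highest in maternal pIUT (95.1 CPM, with Pdgfra at 41.5 CPM) and recipient DC-depleted pIUT (54.7 CPM, 8 of 8 over 3 counts), the libraries with the highest levels of Plagl1, Peg3 and Meg3 and of Grb10 and Dlk1, respectively. They were at 0 for all 8 genes in recipient uninjected, and Col3a1 was the single one seen in maternal mIUT. Skeletal muscle genes ranged from 0.140 CPM in recipient mIUT to 424 CPM in maternal DC-depleted pIUT. The stem and progenitor list was highest in recipient DC-depleted pIUT, at 337 CPM. The part of these cell types in the members' levels was not tested.

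**Figure D5:**
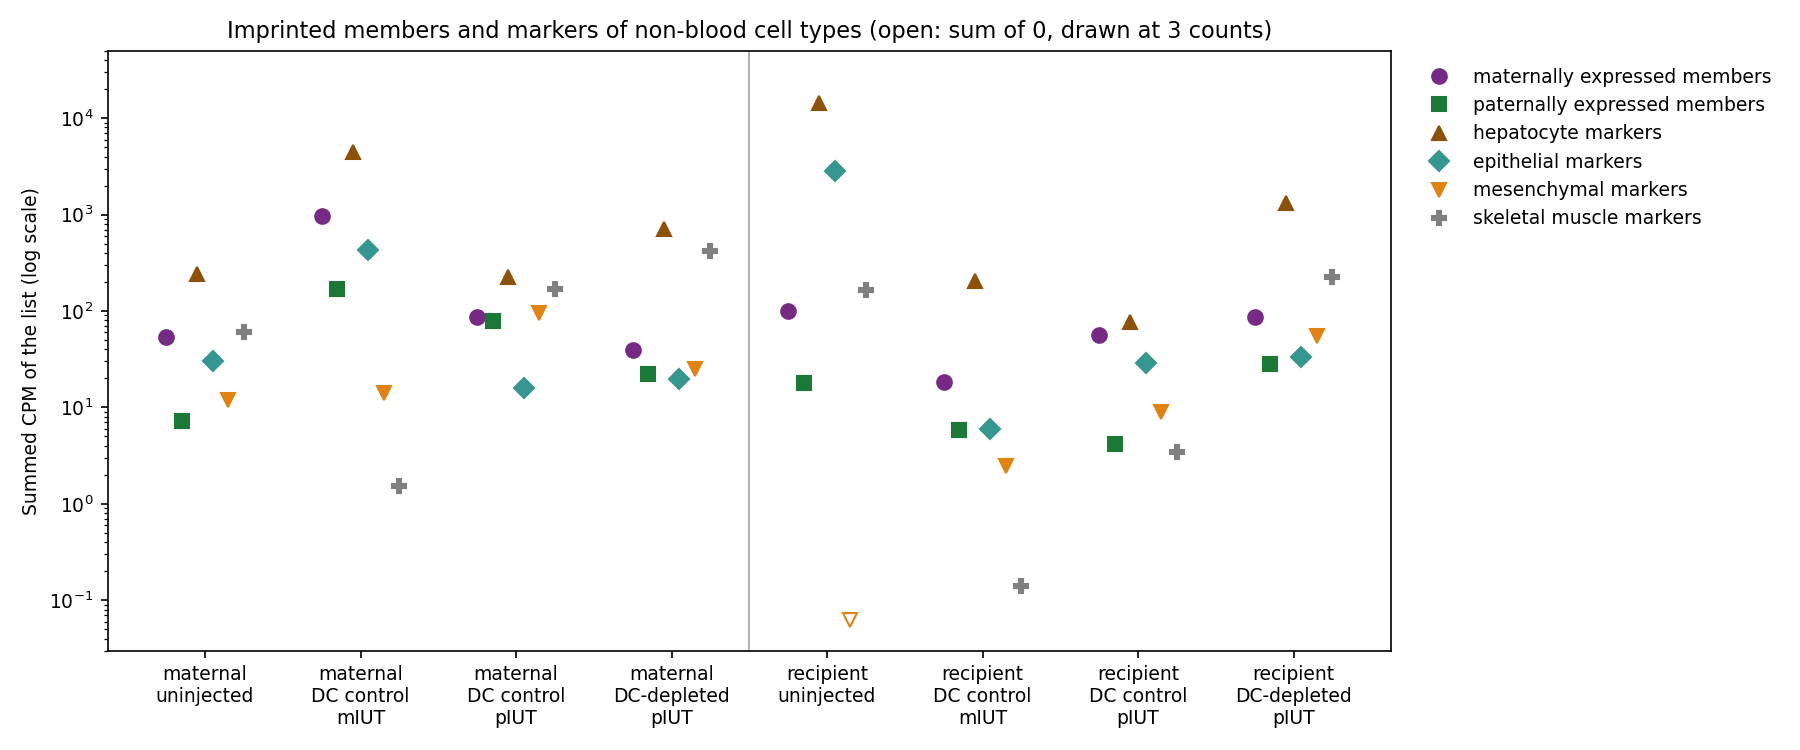
Summed CPM (log axis) of the 5 maternally and the 5 paternally expressed genes beside marker lists of hepatocytes, epithelium, mesenchyme and skeletal muscle in each of the 8 libraries, where an open symbol marks a sum of 0 drawn at the level of 3 counts. The members' sums are highest in maternal mIUT (969 and 168 CPM), where hepatocyte markers are at 4507 CPM, while recipient uninjected, with hepatocyte markers at 14232 CPM, has members' sums of 101 and 18.1 CPM.

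The rest of the IGF pathway was read from a list of 17 genes. Among them the most abundant were Igfbp4, a secreted protein that binds IGFs, Irs2, an adaptor of the insulin and IGF1 receptors, and Igf2bp3, an RNA-binding protein of fetal cells that binds Igf2 mRNA. Igfbp4 was at 216, 17.5, 53.4 and 19.2 CPM in maternal uninjected, mIUT, pIUT and DC-depleted pIUT, and at 84.0, 27.0, 100.3 and 209 CPM in recipient cells. Igf2bp3 was at 0, 83.7, 9.92 and 11.1 CPM in maternal cells and at 107, 57.5, 82.6 and 83.2 CPM in recipient cells, so it was listed at 0 in maternal uninjected alone. Irs2 was at 119, 59.5, 29.6 and 7.06 CPM in maternal and 148, 54.3, 31.0 and 9.21 CPM in recipient cells, with the same order of treatments in both origins. In recipient against maternal cells, 4 were higher and 5 lower of 12 tested in uninjected pups, 3 and 3 of 10 after mIUT, 4 and 6 of 14 after pIUT, and 5 and 0 of 15 after DC-depleted pIUT, where 56.4%, 49.3%, 44.2% and 37.9% of all genes were called. Of the list, 7 of 15 genes tested were higher and 0 lower in recipient DC-depleted against DC control pIUT (median log2 value 1.96, against 0.10 over all genes tested, of which 21.5% were called). In maternal cells 4 were higher and 6 lower of 15 (median -1.29, against -0.07 over all genes tested, of which 53.2% were called).

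Other imprinted genes were read from 2 lists, 30 of whose 31 genes were matched. Between 6 (recipient uninjected) and 22 (recipient DC-depleted pIUT) of them were over 3 counts per library, and 5 were at 0 in all 8. The most abundant were H13, a presenilin-type protease, Nnat, a paternally expressed small membrane protein of neuroendocrine cells, and Ube3a, a ubiquitin ligase that is imprinted in neurons. Nnat was at 1.62, 20.6, 594 and 51.6 CPM in maternal uninjected, mIUT, pIUT and DC-depleted pIUT and at 0.0414 CPM (2 counts), 0.558, 17.2 and 19.2 CPM in recipient cells, so its highest library, maternal pIUT, was that of Plagl1, Peg3 and Meg3. H13 ranged from 46.4 to 271 CPM. Ube3a lay between 18.0 and 97.4 CPM in 7 libraries and at 0.414 CPM in recipient uninjected. Among the other paternally expressed genes, in recipient against maternal cells, 2 were higher and 3 lower of 6 tested in uninjected pups (median log2 value -1.68), and 2 and 3 of 7 after mIUT (median -0.66). After DC control pIUT 3 were higher and 7 lower of 11 (median -3.72, against 44.2% of all genes called), and after DC-depleted pIUT 3 and 2 of 10 (median -0.37, against 37.9%). Of the other maternally expressed genes, 0 were higher and 3 lower of 4 in uninjected pups, 2 and 0 of 5 after mIUT, 1 and 3 of 8 after pIUT, and 5 and 1 of 11 after DC-depleted pIUT. The shares of all genes called were 56.4% in uninjected pups and 49.3% after mIUT.

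RNA of genes whose proteins keep imprints in place was read from a list of 9, of which 6 to 8 were over 3 counts in each library. Ctcfl was at 0 counts in all 8 libraries, and Zfp57, a zinc finger protein that binds methylated imprinted control regions, in 6. Uhrf1, which guides maintenance methylation, was at 1.18, 36.4, 211 and 78.1 CPM in the maternal libraries and between 50.5 and 319 CPM in the recipient libraries. Trim28, a corepressor at imprinted control regions, lay between 45.5 and 230 CPM in all 8. Dnmt1, the maintenance methyltransferase, was at 8.17, 0.181 (7 counts), 141 and 5.18 CPM in maternal and 84.0, 35.6, 42.9 and 132 CPM in recipient libraries. In recipient against maternal cells, 3 of this list were higher and 3 lower of 8 tested in uninjected pups, 2 and 1 of 7 after mIUT, 0 of 7 after pIUT, and 5 and 0 of 7 after DC-depleted pIUT, beside 56.4%, 49.3%, 44.2% and 37.9% of all genes. In maternal DC-depleted against DC control pIUT 0 were higher and 5 lower of 7 (53.2% of all genes called), and in recipient cells 0 of 7 were called (21.5% of all genes).

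Other cyclin-dependent kinase inhibitors, 6 genes, were read beside Cdkn1c. The most abundant were Cdkn2d and Cdkn2c, which inhibit CDK4 and CDK6, and Cdkn1a, the p53 target p21. Cdkn2d was at 155, 286, 67.0 and 79.5 CPM in maternal uninjected, mIUT, pIUT and DC-depleted pIUT, and at 137, 725, 152 and 75.4 CPM in recipient cells. Its highest library was thus recipient mIUT, not maternal mIUT as for Cdkn1c. Cdkn1a was at 39.3 CPM in maternal mIUT and highest in recipient uninjected, at 301 CPM, and Cdkn2c had 0 counts in maternal mIUT against 7.48 to 35.0 CPM elsewhere. In maternal mIUT against uninjected, 1 of 5 genes tested of this list was higher and 1 lower (median log2 value 0.75, against -0.60 over all genes tested, of which 54.3% were called), beside the 69.7-fold higher Cdkn1c.

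The annotation places other genes over some members, and whether counting used strand is not given in the sources used here, so reads from shared bases cannot be assigned with certainty. Mest shares 3850 exonic bases with Copg2 on the opposite strand, and Copg2 had 125, 4246, 1481 and 395 counts in maternal uninjected, mIUT, pIUT and DC-depleted pIUT. In recipient cells Copg2 had 0, 2989, 2066 and 2317 counts, where Mest had 0, 159, 28 and 286. Igf2 shares 3599 bases with Gm49394 on the same strand, which had at most 2 counts. Cdkn1c shares 625 bases with the antisense transcript Gm44732. Of 13417 genes compared, Gm44732 followed Cdkn1c most closely over the 8 libraries (Pearson r = 0.99 on log2(CPM + 0.5), a description), at 86.5 CPM in maternal mIUT, and Gm16984 (r = 0.98) and Gm44771 (r = 0.94) came next. For Mest the closest were Zfp113, Elf3 and Eea1 (r = 0.98, 0.97 and 0.97). Zfp113, a zinc finger protein gene, was at 52.7 CPM in maternal mIUT and 21.0 CPM in maternal pIUT. These correlations rest on 8 libraries that share their depth and cell makeup. Airn, the non-coding RNA that starts within Igf2r on the paternal copy, shares no exonic bases with it and had at most 62 counts.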

How the data were processed

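RNA of 8 pooled libraries was analysed. The authors aligned reads with the nf-core RNA-seq pipeline to GRCm39 with GENCODE M26 and deposited estimated counts per gene, not normalized; the methods name featureCounts, while the deposited file is salmon's. Those estimated counts were rounded here. All columns were mapped and 0 were left out. Gene models came from GENCODE M39, in which 97.99% of identifiers matched. CPM used TMM factors (edgeR 4.0.16, R 4.3.3). Log2 values and calls between libraries came from edgeR's exact test at dispersion 0.4 with prior count 0.125 and no p-value. Printed folds are ratios of the TMM-scaled counts with their counting intervals. Counts of 0 were raised to 3, which gives bounds. For Grb10 libraries with 1 or 2 counts, the ratio printed is of the counts themselves with its counting interval, while calls, log2 values and plots use counts raised to 3. The origin contrast used edgeR's quasi-likelihood test over 8 libraries with the treatment, whose pair of libraries came from the same pooled pups, as a block, and Benjamini-Hochberg adjustment. The scripts were tested on simulated data. Python 3.11.15 and DESeq2 1.42.0 were also used. The members and lists were chosen with earlier results of these data known. Named are all members, the 3 genes of highest mean CPM of each list described, the 3 genes most like Cdkn1c and Mest (at least 10 counts in 4 libraries or more) and genes overlapping members; markers, Ctcfl and Zfp57 are named after their values were seen. Alternatives were other scalings, prior counts of 2 and 5, other filters, an 8-fold threshold, no block, each pair left out and DESeq2.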

Additional observations from a re-analysis of the deposited data

Results flagged for a closer look

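In 9 of 40 comparisons of a member across origins, the same contrast was called in both trafficked maternal and recipient cells but in opposite directions, and the difference between the origins was not tested. These were 9 of the 31 comparisons in which the member was tested in both origins, and over the same 4 contrasts 12.9% of all genes tested in both origins had opposite calls (18.9% for mIUT, 14.3% for pIUT and 13.5% for DC-depleted pIUT against uninjected, and 5.83% for DC-depleted against DC control pIUT). Values are log2 fold changes, with counts of 3 or fewer raised to 3, and each rests on 1 library per origin and treatment. For DC control mIUT against uninjected, H19 was at 2.59 in maternal and -4.22 in recipient cells, Igf2 at 4.90 and -5.93, and Grb10 at -3.32 and 2.98, the last from 1 and 2 counts in the lower libraries. For DC control pIUT against uninjected, Igf2r was at -5.24 in maternal and 5.37 in recipient cells, Igf2 at 2.42 and -4.70, and Peg3 at 7.76 and -5.52, both Peg3 values being bounds. For DC-depleted pIUT against uninjected, Igf2r was at -5.20 in maternal and 4.67 in recipient cells. For DC-depleted against DC control pIUT, Peg3 was at -6.28 in maternal and 3.31 in recipient cells, the second a bound, and Mest at -3.21 and 3.07. The comparisons with uninjected share the uninjected library of their origin.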

How the results depend on the processing

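No called log2 value of a member turned its sign under another scaling or prior count. The counts of called members were within 1.5 times of the reported ones with library size scaling, with prior counts of 2 and 5 and with no filter, for all 12 comparisons. Asking for at least 10 counts in both libraries, which leaves out each gene at 0, lowered the counts by construction: recipient against maternal cells to 1 (uninjected), 4 (mIUT), 5 (pIUT) and 1 (DC-depleted pIUT) members; maternal cells against uninjected to 4 (mIUT), 3 (pIUT) and 2 (DC-depleted pIUT), and DC-depleted against DC control pIUT to 3; recipient cells against uninjected to 1 (mIUT), 2 (pIUT) and 1 (DC-depleted pIUT). With DESeq2 size factors 1 member was called in recipient against maternal cells of DC-depleted pIUT, in place of 2. An 8-fold threshold left 1 there and 2 in maternal DC-depleted against DC control pIUT. The median of all genes moved by up to 0.63 on the log2 scale with library size scaling (recipient against maternal cells, DC-depleted pIUT). The origin test gave 0 genes under each edgeR setting, without the replicate block (0, with 120 genes at an unadjusted p under 0.05) and with each pair left out (0 to 0), and 290 with DESeq2's Wald test, where the cause was not tested. Counts under 10 in a library limit the folds of Igf2 (7 counts in recipient mIUT), Grb10, Igf2r, Meg3, Peg3, Mest, Dlk1 and Plagl1; H19 and Cdkn1c had more in all 8 libraries.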
